A study of Mus musculus with 208 samples.

Results

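A set of 10 genes was followed through the mouse striatum, picked for large rises late in life at long CAG repeats: Acy3, Irs4, AW551984, Slitrk6, Kazald1, Slc45a3, Adamts19, Rprm, Tnnt2 and Ccdc166. They are 10 of 39179 genes in the deposited matrices, and all 10 passed the filter on low counts at each age. They were chosen by symbol because earlier results on these libraries had them higher in long-repeat lines at 6 months or later, so the differences from Q20 at 6 and 10 months are given as a description, with no test. Acy3, Kazald1, Slc45a3, Rprm and Tnnt2 were higher with longer repeats at both ages, whereas Irs4 and AW551984 were not higher than Q20 at 10 months, Slitrk6 and Adamts19 varied widely within groups, and Ccdc166 was estimated from fractional reads throughout.

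Huntington disease follows from an expanded CAG repeat in huntingtin, and the striatum, with its spiny projection neurons, is the brain region most affected. Knock-in mice carry a long repeat within their own huntingtin gene, so the altered allele is expressed from the native promoter in all cells that use it. In such mice the genes that define projection neurons are known to fall with age, while other genes, often little used in the adult striatum, become more abundant.

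RNA was sequenced from the striatum of heterozygous knock-in mice of the C57BL/6 strain. The lines were Q20, Q80, Q92, Q111, Q140 and Q175, named for the CAG repeats of the altered allele, with 8 mice of each line at 2, 6 and 10 months of age. Wild-type mice carried no altered allele, and 8 were housed with each of the 6 lines at 6 months and 8 with Q20 at 2 and at 10 months. By label, the 26 groups of 8 held 4 females and 4 males, apart from the following. Q80 at 2 months held 3 and 5, and Q20 at 10 months 5 and 3. The whole striatum was used, so fewer cells of a type and less RNA per cell cannot be told apart.

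Libraries held 29.1 to 49.6 M counts (M, 1e+06), the median being 35.7 M. At 2 months the mitochondrial share of counts was 17.2 to 24.1% in 7 libraries and 11.4 to 14.9% in the other 49. In addition, 1 library of that age labelled male, and fitted as male, had no count on 4 Y-linked genes. None of these 8 libraries was Q140 or Q175, and tests at 2 months are also given without them. All 12 genes that mark projection neurons were present in all groups. In Q175 against Q20, 11 of these 12 were lower by edgeR's test at 6 months and 11 at 10 months, with a sum of 6558 to 7549 CPM (counts per 1e+06 counts) in Q175 and 11685 to 13794 CPM in Q20 at 6 months. Of the tested markers of astrocytes, microglia, oligodendrocytes, choroid plexus, meninges, cortex, thalamus and hypothalamus, 1 cortical and 1 hypothalamic or pituitary marker were higher at 6 months, and 1 astrocyte and 2 oligodendrocyte markers at 10 months. No other marker of these lists was higher at either age. Lower at 6 months were 3 oligodendrocyte, 2 microglial, 2 hypothalamic or pituitary, 1 astrocyte and 1 cortical marker. Lower at 10 months were 3 oligodendrocyte, 3 astrocyte, 1 microglial, 1 cortical, 1 meningeal and 1 hypothalamic or pituitary marker.

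The 10 genes are not related by family. Acy3 encodes an aminoacylase that removes acetyl groups from mercapturic acids, Slc45a3 a membrane transporter first described in prostate, and Kazald1 a secreted protein with a Kazal-type protease inhibitor domain and an insulin-like growth factor binding domain. Rprm encodes Reprimo, a target of p53 that holds cells before mitosis, and is also a known marker of deep-layer cortical neurons. Tnnt2 encodes the cardiac form of troponin T, part of the thin filament of heart muscle. Slitrk6 encodes a leucine-rich repeat receptor of neurites, Adamts19 a secreted metalloprotease with thrombospondin motifs, and Irs4 an adaptor of the insulin receptor that is known from the hypothalamus. AW551984 carries the name of an expressed sequence tag, and Ccdc166 is named for its coiled coil. All were low. Median FPKM over all libraries, a level per length, was highest for Rprm at 5.34 and next for Tnnt2 at 2.48. AW551984 (1.45 FPKM), Kazald1 (1.37 FPKM) and Slitrk6 (1.24 FPKM) came after them, then Acy3 (0.924 FPKM), Slc45a3 (0.854 FPKM) and Ccdc166 (0.703 FPKM). Adamts19 (0.197 FPKM) and Irs4 (0.165 FPKM) were lowest, with as few as 10 and 9 counts in a library. Irs4 overlaps Gm15295 on the opposite strand, and Kazald1 and Slc45a3 each overlap an unnamed gene on their own strand, so reads could be shared there.

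The first question was how the level of each gene followed repeat length. At 6 months all 8 Q175 libraries lay above all 8 Q20 libraries for 7 of the 10 genes, namely Acy3, AW551984, Slitrk6, Kazald1, Slc45a3, Adamts19 and Tnnt2, a pattern shown by 4.64% of the 17642 genes tested at that age. In Q111 and in Q140 it was shown by Acy3, Slc45a3, Adamts19 and Tnnt2 (all genes, 0.748% and 2.62%). At 10 months it held for 5 genes in Q175 and the same 5 in Q140, namely Acy3, Kazald1, Slc45a3, Rprm and Tnnt2 (all genes, 1.70% and 1.51%), and for Kazald1 and Slc45a3 in Q111 (0.850%). It held for none of the 10 in Q80 (0.00% and 0.0466%) or Q92 (0.0964% and 0.0466%) at 6 and 10 months. At 2 months it held for none of the 10 in any line (all genes, 0.0235% in Q80, 0.00% in Q92, 0.00% in Q111, 0.0118% in Q140 and 0.0235% in Q175). Against wild types, all 8 Q175 libraries were above all 8 for 6 of the 10 at 6 months (all genes, 4.15%), where Rprm joined and AW551984 and Adamts19 dropped out, and for the same 5 at 10 months as against Q20 (all genes, 1.91%). Adamts19 in Q111 at 6 months averaged 1.13 CPM, below the 2.28 CPM of wild types housed with Q111 (log2 difference -1.01, SE 0.528). Its mean in Q20 at that age was 0.491 CPM. Since these contrasts chose the genes, the counts are a description.

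**Figure D1:**
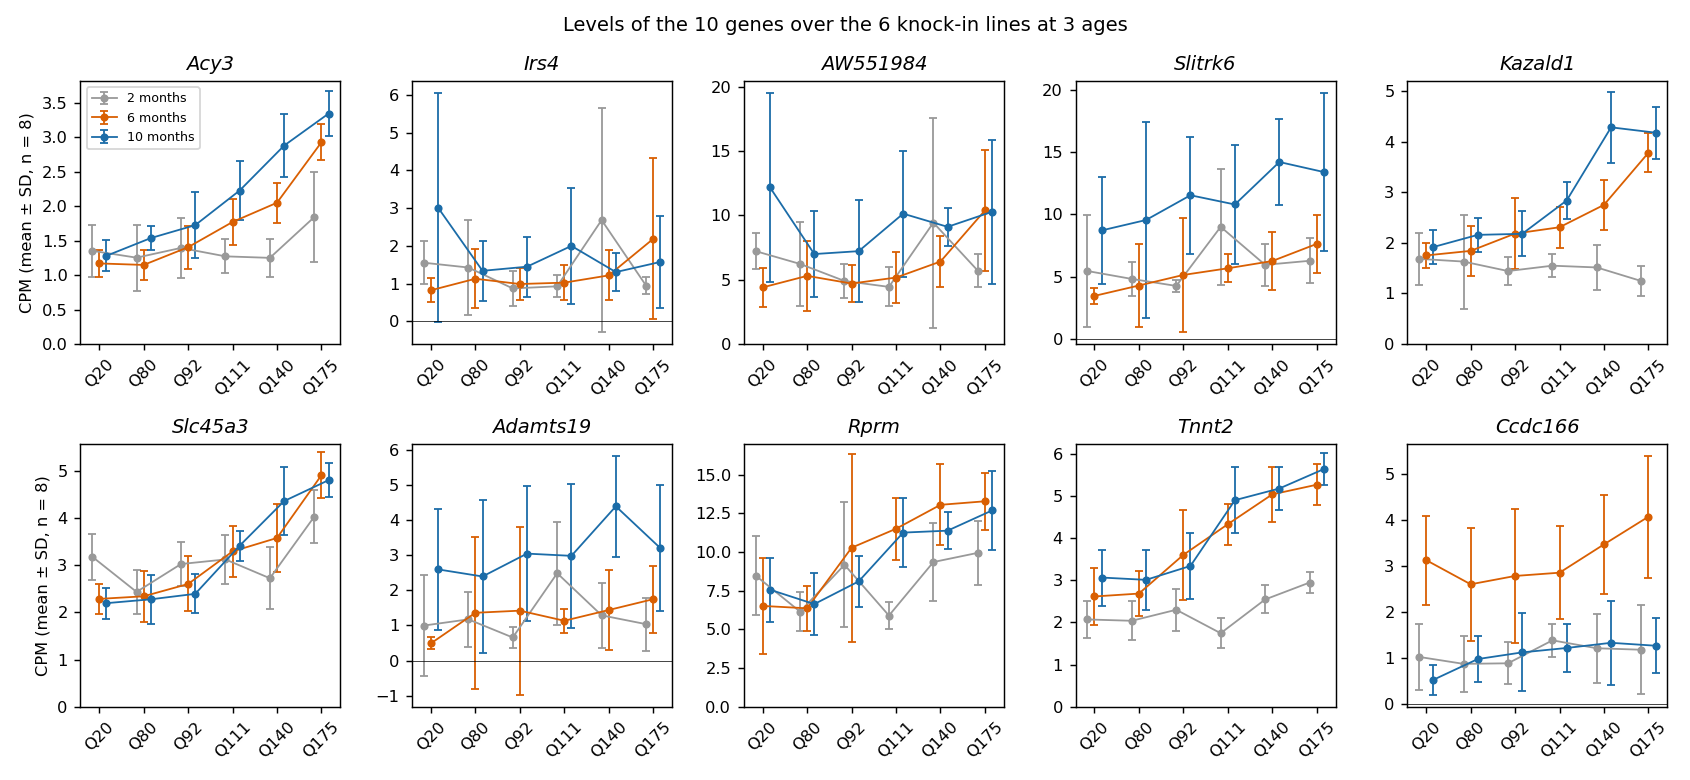
Mean CPM, scaled by TMM factors, of each gene on the y axis over the 6 knock-in lines on the x axis, with 1 colour per age and bars of 1 SD over 8 libraries. Acy3, Kazald1, Slc45a3, Rprm and Tnnt2 have higher means in Q111, Q140 and Q175 than in Q20 at 6 and 10 months. Not every step between neighbouring lines is up. At 2 months Kazald1 has its highest mean in Q20 and its lowest in Q175. Irs4 and AW551984 have their highest 10-month mean in Q20.

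Acy3, the aminoacylase, was higher with longer repeats, apart from Q80 at 6 months, at 1.15 CPM against 1.17 CPM in Q20. At 6 months the lowest, median and highest Q175 libraries had 2.598, 2.89 and 3.32 CPM, against 0.844, 1.12 and 1.40 CPM in Q20. At 10 months they had 2.76, 3.44 and 3.72 CPM in Q175, against 0.971, 1.30 and 1.66 CPM in Q20. The Q175 and Q20 libraries did not overlap at either age, and the Q175 minus Q20 difference was 1.32 on the log2 scale at 6 months (SE 0.128) and 1.40 at 10 months (SE 0.137). The means at 10 months stood in the order of the repeats, at 1.28 ± 0.225 CPM in Q20, 1.54 ± 0.169 in Q80, 1.72 ± 0.474 in Q92, 2.23 ± 0.433 in Q111, 2.88 ± 0.456 in Q140 and 3.34 ± 0.328 in Q175 (SD, n = 8 each). Neighbouring lines in this order overlapped. The fitted slope was 0.10 log2 units per 10 repeats (SE 0.00847) at 10 months and 0.09 (SE 0.00808) at 6 months. Against wild types (those housed with Q175 at 6 months and with Q20 at 10 months), with 1.27 ± 0.194 CPM at 6 months and 1.38 ± 0.338 CPM at 10 months, Q175 was higher by 1.20 and 1.28 on the log2 scale.

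Slc45a3 and Kazald1 differed by similar amounts. For Slc45a3 the lowest, median and highest Q175 libraries had 4.08, 5.003 and 5.64 CPM at 6 months, against 1.57, 2.37 and 2.53 CPM in Q20. At 10 months they had 4.27, 4.75 and 5.35 CPM in Q175, against 1.78, 2.15 and 2.71 CPM in Q20. The Slc45a3 difference was 1.10 (log2, SE 0.127) at 6 months and 1.14 (SE 0.107) at 10 months, with no overlap, and its 6 line means stood in the order of the repeats at both ages. Kazald1 had 3.503, 3.57 and 4.55 CPM in Q175 at 6 months, against 1.41, 1.74 and 2.15 CPM in Q20. At 10 months it had 3.49, 4.37 and 4.83 CPM in Q175, against 1.49, 1.85 and 2.38 CPM in Q20. The Kazald1 difference was 1.11 (log2, SE 0.136) at 6 months and 1.14 (SE 0.117) at 10 months, and at the later age Q140, at 4.28 ± 0.701 CPM, and Q175, at 4.18 ± 0.513 CPM, did not differ beyond their spread. With scores of cortical, thalamic and choroid plexus markers as covariates, the Kazald1 difference at 6 months was 0.89 (SE 0.0955), and that of Slc45a3 was 1.03.

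Tnnt2 had 4.46, 5.14 and 5.93 CPM in the lowest, median and highest Q175 libraries at 6 months, against 1.57, 2.53 and 3.43 CPM in Q20. At 10 months it had 5.18, 5.57 and 6.31 CPM in Q175, against 2.17, 3.22 and 3.83 CPM in Q20. Groups did not overlap, and the difference was 1.01 (log2, SE 0.124) at 6 months and 0.90 (SE 0.127) at 10 months. The widest step between neighbouring lines at 10 months lay between Q92 and Q111: Q92 had 3.34 ± 0.780 CPM, Q111 4.90 ± 0.777, Q140 5.18 ± 0.522 and Q175 5.64 ± 0.371 (SD, n = 8 each). Rprm had 10.9, 13.03 and 16.4 CPM in Q175 at 6 months, against 3.91, 5.77 and 13.9 CPM in Q20, so that 1 Q20 library, M3 (a male), lay inside the Q175 range. That library also had the highest summed level of 10 cortical neuron markers in its group, 275 CPM against 140 to 166 CPM in the other Q20 libraries, and the part of cortical RNA in the difference was not tested. Without it, 8 of the 10 genes had all Q175 libraries above all Q20 libraries at 6 months. At 10 months Rprm had 9.65, 12.003 and 16.9 CPM in Q175, against 2.78, 8.26 and 9.18 CPM in Q20, with no overlap. The Rprm difference was 1.01 (log2, SE 0.206) at 6 months and 0.75 (SE 0.166) at 10 months, and with the 3 tissue scores it was 1.06 and 0.81.

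**Figure D2:**
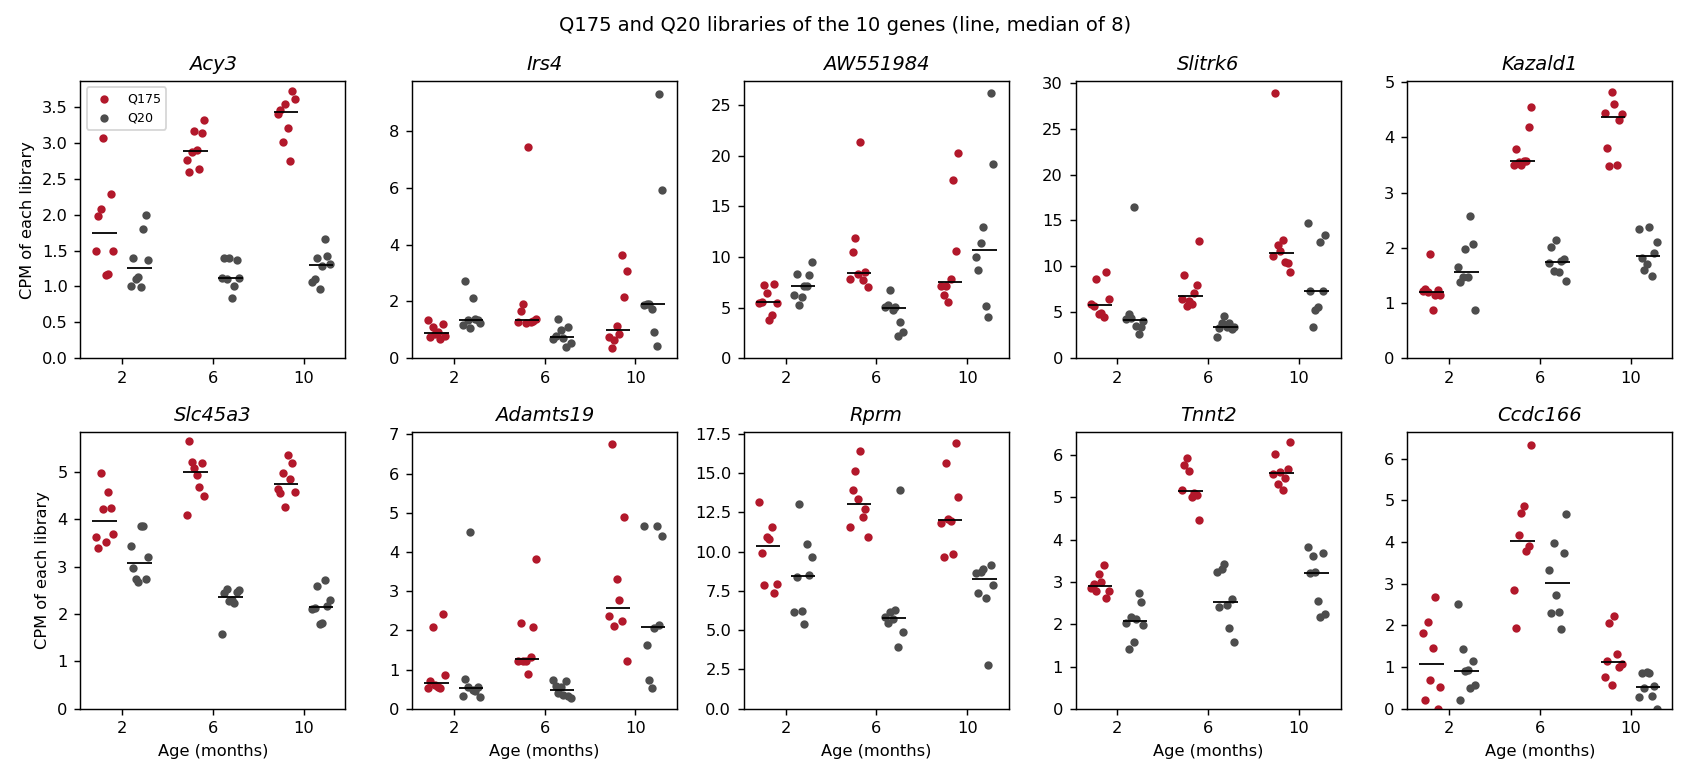
CPM of every Q175 library (left of each pair) and Q20 library (right) on the y axis at 2, 6 and 10 months on the x axis, for each of the 10 genes, with the median of 8 as a line. Single high libraries stand out for Irs4, AW551984, Slitrk6 and Adamts19, and the Q175 and Q20 points are apart at 6 and 10 months for Acy3, Kazald1, Slc45a3 and Tnnt2.

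The start regions of the 5 genes higher at both ages are shown because these differences chose them, and their profiles were not all alike, with r over the 26 group means from 0.551 for Kazald1 with Slc45a3 to 0.892 for Acy3 with Tnnt2. Windows of 300 bases, 250 before and 50 after the RefSeq start on build GRCm38.p6, were available for 8 of the 10 genes, and the first listed is given, 5′ to 3′ on the gene's strand. They are Acy3 (chr19:3986320-3986619, plus strand), Kazald1 (chr19:45074991-45075290, plus), Slc45a3 (chr1:131962665-131962964, plus), Rprm (chr2:54085503-54085802, minus) and Tnnt2 (chr1:135836084-135836383, plus). Capitals mark exact matches, on either strand, to the letters TATAAA or to CCAAT or to GGGCGG (the GC box) or to TGACGTCA or to CACGTG, so that CCGCCC marks a GC box on the other strand.
Acy3: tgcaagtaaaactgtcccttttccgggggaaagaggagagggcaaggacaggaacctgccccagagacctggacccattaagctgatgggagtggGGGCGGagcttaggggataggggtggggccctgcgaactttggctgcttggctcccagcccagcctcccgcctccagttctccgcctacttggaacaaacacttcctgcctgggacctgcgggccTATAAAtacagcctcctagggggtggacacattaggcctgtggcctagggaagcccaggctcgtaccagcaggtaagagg
Kazald1: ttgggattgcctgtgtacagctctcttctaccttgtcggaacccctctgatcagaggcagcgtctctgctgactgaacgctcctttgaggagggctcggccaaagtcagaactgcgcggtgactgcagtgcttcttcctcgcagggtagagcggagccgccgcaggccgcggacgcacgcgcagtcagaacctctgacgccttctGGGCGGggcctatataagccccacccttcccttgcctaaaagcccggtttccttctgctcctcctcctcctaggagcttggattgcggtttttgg
Slc45a3: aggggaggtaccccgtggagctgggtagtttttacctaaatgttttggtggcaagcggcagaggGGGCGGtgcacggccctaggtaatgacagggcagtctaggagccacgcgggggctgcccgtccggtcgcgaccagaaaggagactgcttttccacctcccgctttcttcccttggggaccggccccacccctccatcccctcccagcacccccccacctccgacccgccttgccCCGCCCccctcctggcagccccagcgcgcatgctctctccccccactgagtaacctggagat
Rprm: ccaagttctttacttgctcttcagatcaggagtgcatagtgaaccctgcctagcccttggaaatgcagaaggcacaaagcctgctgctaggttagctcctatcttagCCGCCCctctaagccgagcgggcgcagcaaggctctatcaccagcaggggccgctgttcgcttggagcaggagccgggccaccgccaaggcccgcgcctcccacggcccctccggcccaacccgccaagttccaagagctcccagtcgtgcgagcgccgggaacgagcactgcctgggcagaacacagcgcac
Tnnt2: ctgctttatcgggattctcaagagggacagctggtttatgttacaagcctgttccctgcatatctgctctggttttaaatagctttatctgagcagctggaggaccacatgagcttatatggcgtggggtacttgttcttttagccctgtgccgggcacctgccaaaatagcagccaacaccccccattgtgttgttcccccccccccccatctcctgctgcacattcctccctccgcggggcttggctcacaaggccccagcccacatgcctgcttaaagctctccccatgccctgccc
The GC box was in 4 of these 5 windows, all but that of Tnnt2, and in 35.9% of 27025 first windows of all genes. TATAAA was in the window of Acy3 alone among the 5 (14.2% of all windows), and TGACGTCA (1.88% of all windows) and CCAAT (37.9% of all windows) were in none of the 5. The G+C share was 60.3% for Acy3, 60.0% for Kazald1, 66.3% for Slc45a3, 63.3% for Rprm and 55.7% for Tnnt2, against a median of 52.7% over all windows. Among the 3 other genes with a window, CACGTG was in all of Irs4, AW551984 and Slitrk6 and in 7.24% of all windows. A match is a description of the letters and not a bound site.

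Irs4 and AW551984 varied together, and their slopes on repeat length were above 0 at 6 months and not at 10 months. For Irs4 the slope was 0.08 log2 units per 10 repeats (SE 0.0217) at 6 months and -0.06 (SE 0.0247) at 10 months. That of AW551984 was 0.08 (SE 0.0164) and -0.01 (SE 0.0188). For Irs4 the Q175 libraries had 1.25, 1.34 and 7.43 CPM at 6 months (lowest, median, highest), against 0.398, 0.748 and 1.38 CPM in Q20. The highest, the male M1, held 42.5% of the group's sum. The difference was 1.35 (log2, SE 0.370), and 0.80 without that library. At 10 months the Q175 libraries had 0.375, 0.990 and 3.64 CPM, against 0.440, 1.89 and 9.33 CPM in Q20, a difference of -1.01 (SE 0.424). The male Q20 libraries M2 and M3 had 9.33 and 5.94 CPM, and without both the difference was -0.15. Against wild types housed with Q20, with 0.569, 1.11 and 1.82 CPM, the difference at 10 months was 0.30 (SE 0.458).

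AW551984 had 7.02, 8.40 and 21.3 CPM in Q175 at 6 months, against 2.18, 4.92 and 6.69 CPM in Q20, with no overlap and a difference of 1.24 (log2, SE 0.287). Its highest Q175 library was again M1, without which the difference was 0.997. At 10 months it had 5.51, 7.48 and 20.3 CPM in Q175, against 4.10, 10.7 and 26.2 CPM in Q20, so that the groups overlapped over nearly their whole range, with a difference of -0.30 (SE 0.319). Hypothalamic and pituitary markers summed to 8.38 CPM in Q175 M1 at 6 months (group median 3.33 CPM) and to 11.8 and 56.3 CPM in Q20 M2 and M3 at 10 months (group median 5.40 CPM), and their part was not tested. They summed to 2.99 CPM in Q140 M1 at 2 months (group median 2.81 CPM), the library with the highest Irs4 and AW551984 of that group, at 9.83 and 28.0 CPM. In the 48 wild types of 6 months neither gene passed with this marker sum, at r = 0.20 for Irs4 (permutation, adjusted p 0.629 over 90 relations) and r = 0.10 for AW551984 (permutation, adjusted p 0.901). The highest Q20 libraries of AW551984 were the same pair, M2 and M3, and without both the difference was 0.13. In wild types at 10 months AW551984 had 3.35, 5.47 and 9.08 CPM, and Q175 was higher by 0.77 (SE 0.332). Over the 48 wild types of 6 months, Irs4 and AW551984 varied together within housing group and sex, with r = 0.86 and rho = 0.84 on log2 CPM. The permutation p was 1e-05 for each (the smallest that 100000 permutations within housing group and sex can give) and 0.000225 after Benjamini-Hochberg adjustment over 45 pairs of the 10 genes, and r was 0.83 without the 2 libraries farthest out. Of the 45 pairs, 4 passed in both r and rho, the others being Slitrk6 with Adamts19 (r = 0.90, rho = 0.86, permutation, adjusted p 0.000225 each), Irs4 with Rprm (r = 0.56, rho = 0.53, permutation, adjusted p 0.00787 and 0.0174) and Rprm with Tnnt2 (r = 0.55, rho = 0.56, permutation, adjusted p 0.00787 and 0.00495). Without the 2 farthest libraries r was 0.87, 0.56 and 0.50 in these pairs.

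**Figure D3:**
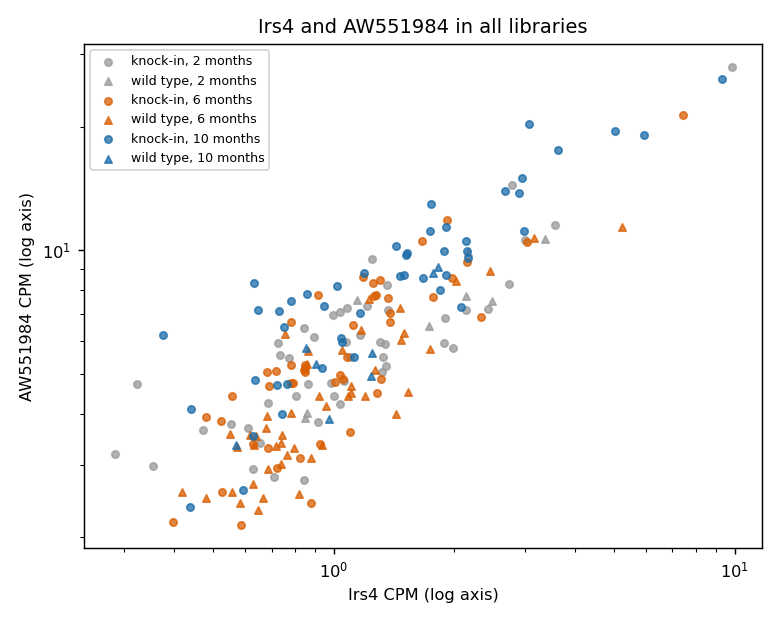
Irs4 CPM on the x axis and AW551984 CPM on the y axis for each library, on log axes, with circles for knock-in and triangles for wild-type mice and 1 colour per age. The points rise together at all ages, and libraries high in both, such as Q20 M2 at 10 months with 9.33 and 26.2 CPM, come from knock-in and wild-type mice.

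Slitrk6 and Adamts19 followed the markers of another brain region. Slitrk6 had 5.701, 6.76 and 12.7 CPM in Q175 at 6 months, against 2.25, 3.42 and 4.57 CPM in Q20, a difference of 1.13 (log2, SE 0.312) with no overlap. At 10 months it had 9.41, 11.4 and 28.9 CPM in Q175, against 3.42, 7.30 and 14.7 CPM in Q20, with a difference of 0.62 (SE 0.330) and overlapping groups. Wild types averaged 12.1 CPM of Slitrk6 at 10 months, and the Q175 difference from them was 0.15 (SE 0.324). Adamts19 had 0.887, 1.27 and 3.83 CPM in Q175 at 6 months, against 0.286, 0.481 and 0.728 CPM in Q20, a difference of 1.798 (SE 0.581), and 1.04 (SE 0.550) from wild types. At 10 months it had 1.22, 2.57 and 6.75 CPM in Q175, against 0.518, 2.10 and 4.67 CPM in Q20, a difference of 0.31 (SE 0.460) with overlapping groups, and -0.15 (SE 0.450) from wild types, which averaged 3.59 CPM.

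The 7 thalamic markers (Slc17a6, Tcf7l2, Lef1, Gbx2, Rgs16, Ramp3 and Prkcd), none of them at 0 in a group, moved with both genes. Their summed level was 42.0 to 303 CPM in Q175 and 35.2 to 77.8 CPM in Q20 at 6 months, and 108 to 588 CPM in Q175 and 67.4 to 411 CPM in Q20 at 10 months, and none of the 7 was called in Q175 against Q20 at either age. Their median Q175 minus Q20 difference was 0.90 (log2) at 6 months and 0.07 at 10 months. In the 48 wild types of 6 months, Slitrk6 went with the thalamic sum at r = 0.94 and rho = 0.90, and Adamts19 at r = 0.95 and rho = 0.95. For each, the permutation p was 1e-05 and 0.0003 after adjustment over 90 relations of the 10 genes with 9 marker lists, and r was 0.91 and 0.94 without the 2 libraries farthest out. Rprm went with the cortical sum at r = 0.71 and rho = 0.72 (permutation p 1e-05, adjusted 0.0003, r 0.70 without the 2 farthest). Kazald1 went against the striatal projection neuron sum at r = -0.63 and rho = -0.54 (permutation, adjusted p 0.00342 and 0.0148, r -0.60 without the 2 farthest), a sum that was lower in Q175 as given above, and its part in the Kazald1 difference was not tested. In all, 7 of the 90 relations passed in both r and rho, the others being Slitrk6 and Adamts19 with microglial markers and Adamts19 with striatal markers, all negative. With the 3 tissue scores as covariates, the Q175 minus Q20 difference at 6 months was 0.60 (SE 0.123) for Slitrk6 and 0.83 (SE 0.205) for Adamts19, and at 10 months it was 0.59 (SE 0.0910) and 0.28 (SE 0.138). Some libraries were highest of their group in the thalamic sum, Slitrk6 and Adamts19 at once, as were Q20 F4 at 2 months (456.4 CPM of markers, 16.5 CPM of Slitrk6, 4.52 CPM of Adamts19) and Q80 F2 at 10 months (879 CPM of markers, 28.8 CPM of Slitrk6, 7.58 CPM of Adamts19).

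**Figure D4:**
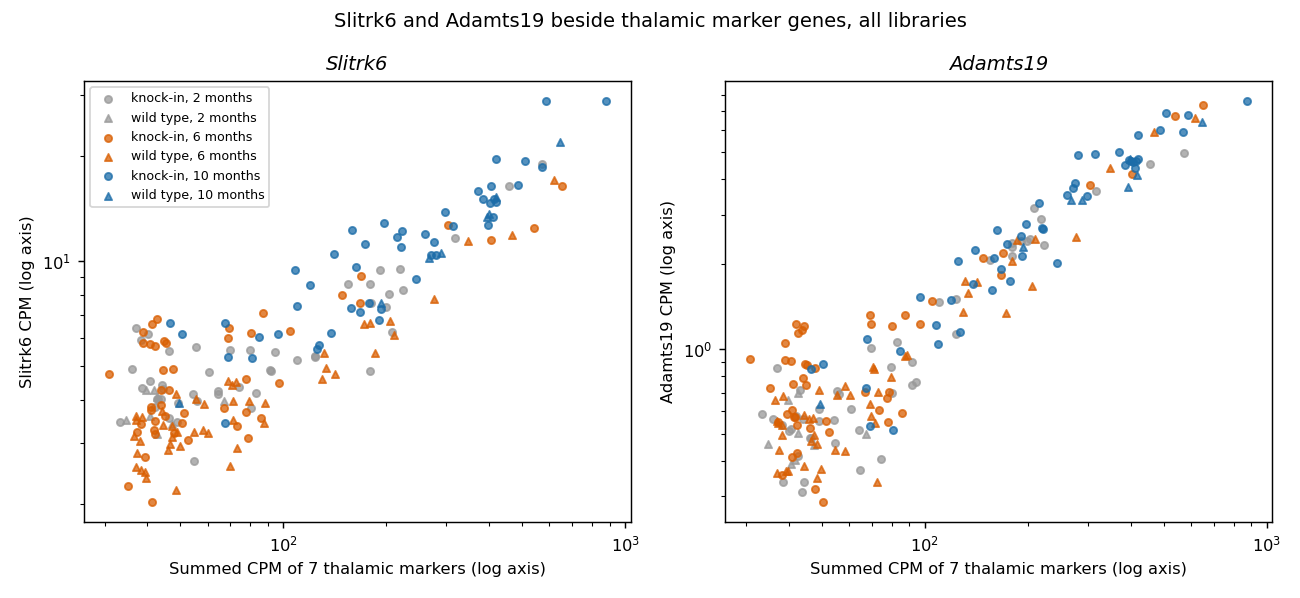
CPM of Slitrk6 (left) and Adamts19 (right) on the y axis against the summed CPM of 7 thalamic markers on the x axis for each library, on log axes, with circles for knock-in and triangles for wild-type mice and 1 colour per age. Both genes climb with the marker sum at all 3 ages, with r = 0.94 and 0.95 in the wild types of 6 months.

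Ccdc166 had the least sure counts. Its counts above 0 were fractional in 100% of libraries, against 6.25% for Irs4, 1.44% for AW551984 and 0% for the 7 others, and 4 libraries were at 0. Its level was 4.06 ± 1.32 CPM in Q175 and 3.12 ± 0.963 CPM in Q20 at 6 months (SD, n = 8 each), and 1.27 ± 0.590 CPM in Q175 and 0.527 ± 0.324 CPM in Q20 at 10 months. Wild types also differed between ages, with means of 1.28 CPM at 2 months, 3.07 CPM at 6 months (n = 48) and 0.969 CPM at 10 months. At 10 months the libraries had 0.560, 1.11 and 2.23 CPM in Q175, against 0, 0.520 and 0.874 CPM in Q20, and 6 of 8 Q175 libraries lay above the highest of Q20. The difference was 0.37 (log2, SE 0.266) at 6 months and 1.26 (SE 0.477) at 10 months, and 0.40 (SE 0.440) against wild types at 10 months. No annotated gene overlapped it in GENCODE M21.

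**Figure D5:**
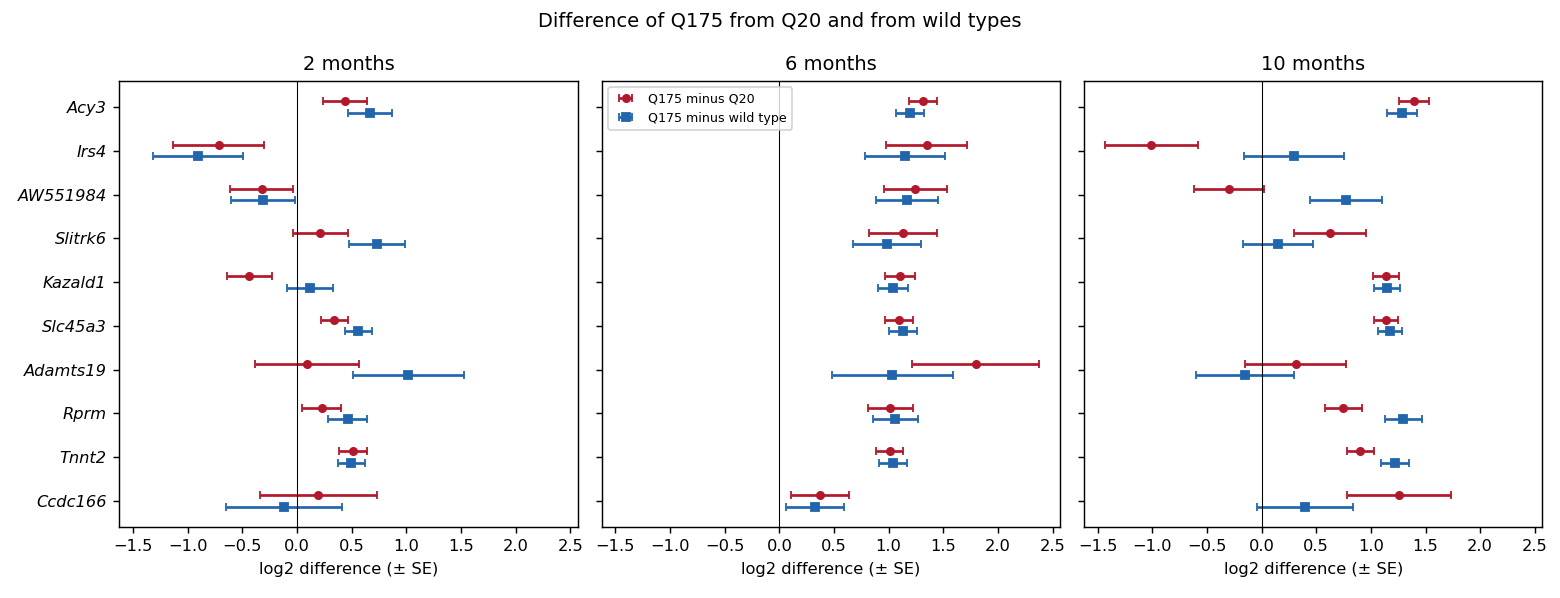
The log2 difference of Q175 from Q20 (circles) and from wild types (squares) on the x axis for each gene on the y axis at 2, 6 and 10 months, with bars of 1 SE. Q20 and wild types give about the same difference for Acy3, Kazald1 and Slc45a3 at 6 and 10 months, and at 10 months they differ in sign for Irs4 (-1.01 from Q20 and 0.30 from wild types), AW551984 (-0.30 and 0.77) and Adamts19 (0.31 and -0.15).

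The second question was what the 10 genes did at 2 months. They were picked as late rises, so a low count of calls at that age was partly set by the choice, and the counts are given with nothing read from them. By edgeR's quasi-likelihood test with Benjamini-Hochberg adjustment over all 17006 genes, 0 of the 10 passed in Q175 against Q20 (all genes, 0.218%), with 4 at an unadjusted p under 0.05, and DESeq2 called 1. None passed in Q140 (all genes, 0.00%; 1 of the 10 unadjusted, 0 by DESeq2) or Q111 (0.0176%; 4 unadjusted, 0 by DESeq2). None passed in the trend over the 6 lines (0.447%), with 3 unadjusted and 1 by DESeq2. The median difference of the 10 in Q175 was 0.20 (log2), against -0.01 over all genes, and 7 of the 10 were above 0. It was 0.18 in Q140, with 7 above 0, and -0.11 in Q111, with 3 above 0. Of the 4 unadjusted in Q111, Slitrk6 and Adamts19 were higher and AW551984 and Rprm lower.

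Tnnt2 came nearest. It had 2.61, 2.91 and 3.39 CPM in the lowest, median and highest Q175 libraries at 2 months, against 1.43, 2.08 and 2.74 CPM in Q20. All 8 Q175 libraries lay above the Q20 mean and 7 of 8 above the highest Q20 library, for a difference of 0.51 (log2, SE 0.125, edgeR adjusted p = 0.0613). DESeq2 gave an adjusted p of 0.0109, and over all settings the adjusted p ran from 0.00175, without the libraries that stood apart, to 0.292. The Tnnt2 trend was 0.03 log2 units per 10 repeats (SE 0.00849, edgeR adjusted p = 0.0597, over all settings 0.00111 to 0.126). The Slc45a3 difference was 0.34 (SE 0.126), with 3.40, 3.96 and 4.98 CPM in Q175 and 2.68, 3.08 and 3.86 CPM in Q20, and 8 of 8 Q175 libraries above the Q20 mean. That of Acy3 was 0.44 (SE 0.202), where 6 of 8 Q175 values exceeded the mean of Q20, and of the settings run its trend passed only without the libraries that stood apart. Kazald1 lay on the other side, at -0.44 (SE 0.206), with 1.25 ± 0.287 CPM in Q175 and 1.68 ± 0.516 CPM in Q20, and Irs4 at -0.72 (SE 0.414). From wild types, which averaged 1.15 CPM of Kazald1, the Kazald1 difference was 0.12 (SE 0.211). That of Irs4 from wild types was -0.91 (SE 0.415). Against wild types at 2 months, all 8 Q175 libraries lay above all 8 wild types for Slitrk6, Slc45a3 and Tnnt2, a pattern shown by 0.09996% of all genes. These differences were 0.73, 0.56 and 0.50 (log2).

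No difference between the sexes passed a test. The difference of the Q175 minus Q20 change between males and females was called for 0 of the 10 at 6 months (all genes, 0.00%; 1 of the 10 unadjusted, 0 by DESeq2) and 0 at 10 months (all genes, 0.00%; 0 unadjusted, 0 by DESeq2) in edgeR's test. The one below 0.05 unadjusted was Irs4 at 6 months, with a male minus female difference of 1.39 (SE 0.669, edgeR adjusted p = 0.882), which holds the library M1 named above. Acy3 had 3.004 ± 0.294 CPM in males and 2.85 ± 0.239 CPM in females of Q175 at 6 months, and 1.09 ± 0.221 CPM in males and 1.25 ± 0.167 CPM in females of Q20 (SD, n = 4 each).

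Wild types gave the levels without an altered allele. The labels tell the 6 wild-type groups of 6 months apart by the line they were housed with. Among these groups, 0 of the 10 genes differed by edgeR's test (all genes, 1.34%; 2 of the 10 unadjusted, 0 by DESeq2). The pair was Slitrk6 and Adamts19, and their group means were not alike. Adamts19 averaged 0.663 CPM in wild types housed with Q140 and 2.28 CPM in those housed with Q111. Slitrk6 averaged 3.45 CPM in wild types housed with Q80 and 6.75 CPM in those housed with Q111. On the log2 scale this spread was about as wide as the Q175 minus Q20 difference at 6 months for Adamts19, and somewhat narrower for Slitrk6. Between males and females of those 48 mice, 0 of the 10 passed (all genes, 8.11%; 2 unadjusted, 0 by DESeq2). Irs4 was nearest to higher in males, by 0.50 (edgeR adjusted p = 0.151), and Tnnt2 to lower, by -0.20 (edgeR adjusted p = 0.0802).

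Between wild types of 10 and 2 months, 5 of the 10 genes passed in edgeR's test (all genes, 26.1%; 5 by DESeq2). Adamts19 was higher by 2.82 (log2, SE 0.499, edgeR adjusted p = 0.00029), at 3.59 ± 1.69 CPM at 10 months and 0.509 ± 0.112 CPM at 2 months (SD, n = 8 each). Slitrk6 was higher by 1.69 (SE 0.329, edgeR adjusted p = 0.000689) and Kazald1 by 0.73 (SE 0.140, edgeR adjusted p = 0.000434), each in 8 of 8 libraries. Slc45a3 fell by 0.34 (edgeR adjusted p = 0.0318) and Rprm fell by 0.47 (edgeR adjusted p = 0.0337), and both lost the call with the code in the library names as a covariate (edgeR adjusted p = 0.304 and 0.204), as did Rprm with no filter on low counts (edgeR adjusted p = 0.0507). The thalamic sum in these wild types was 49.5 to 646.03 CPM at 10 months and 34.7 to 67.3 CPM at 2 months, and its part in the Slitrk6 and Adamts19 changes was not tested. Age and any difference in handling between the ages cannot be told apart.

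Relatives of the 10 genes were read beside them, from 7 lists of families and pathways with 73 genes. Of 67 tested at 6 months, 8 were higher and 14 lower in Q175 than in Q20 (all genes, 36.2% in either direction), and of 66 tested at 10 months, 4 were higher and 15 lower (all genes, 24.5%). Their median difference was 0.02 at 6 months and 0.00 at 10 months, against 0.01 over all genes at each age. On FPKM the split turned, with 16 higher and 10 lower of 55 at 6 months and 12 and 10 of 56 at 10 months, as it did over all genes, where 49.8% of the calls on counts and 75.7% of those on log2(FPKM + 1) were higher at 6 months.

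The lists moved in both directions. Among the Slitrk receptors, 4 of 5 were higher at 6 months and 1 lower, with small differences: Slitrk1 at 0.39 (log2, SE 0.0864), with 30.9 ± 2.69 CPM in Q175 and 23.4 ± 2.18 CPM in Q20, and Slitrk2 at -0.22. Slitrk5, at 0.10, lost its call with DESeq2 (adjusted p = 0.0554). At 10 months Slitrk2 alone passed, at -0.19. Of 17 tested ADAMTS proteases, 2 were higher and 2 lower at 6 months, with Adamts6 at 0.39 and Adamts3, which trims procollagen, at -0.45, and 1 and 3 of 16 at 10 months. Insulin and insulin-like growth factor signalling had 0 of 18 higher and 5 lower at each age (all genes, 18.2% lower at 6 months and 12.1% at 10 months). On both FPKM scales Insr and Igfbp5 lost the call at 6 months and Insr, Igf2 and Igfbp4 at 10 months, and Insr and Igf2 lost it at 10 months with the code in the library names as a covariate or with the replicate block as well. Akt2, a kinase of that pathway, was at -0.47 (SE 0.0469) at 6 months, with 103 ± 4.49 CPM in Q175 and 143 ± 8.82 CPM in Q20, and Igfbp4, a binding protein, at -0.42. Among troponins and tropomyosins, 0 were higher and 3 lower of 9 at 6 months and 2 and 3 at 10 months. Tpm2, a tropomyosin, was at -0.60 (SE 0.0644) at 6 months and Tpm1 at -0.38, while the slow muscle troponin Tnni1, which lies near Tnnt2, was at 0.42 at 10 months. The aminoacylase Acy1 was at -0.55 (SE 0.0518) at 6 months, with 1 of 3 lower at 6 months and 2 of 3 at 10 months, and in the SLC45 family Slc45a4 was at 0.20, 1 of 2 tested at 6 months and 0 of 2 at 10 months. Of 13 p53 targets and relatives of Rprm, 1 was higher and 2 lower at 6 months, with Cdkn1a, the p21 inhibitor of the cell cycle, at -0.47, and 1 and 1 at 10 months.

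Genes beside the 10 on their chromosomes were also read. Of the 40 tested genes that flank the 10, taken as the nearest 2 on each side, 10 were higher and 6 lower in Q175 at 6 months (all genes, 36.2%) and 7 and 5 at 10 months (24.5%). Lad1, next to Tnnt2, was higher at both ages, by 0.46 (log2, SE 0.0945, edgeR adjusted p = 3.99e-05) at 6 months and 0.81 (SE 0.0888, edgeR adjusted p = 2.46e-10) at 10 months, with 3.35 CPM in Q175 and 1.93 CPM in Q20 at 10 months. Aldh3b2, next to Acy3, was higher by 1.10 (SE 0.310) at 6 months at a level of 0.431 CPM in Q175 and 0.198 CPM in Q20. At 10 months Aldh3b2 was not called, at -0.31 (SE 0.307, edgeR adjusted p = 0.512), with 0.388 CPM in Q175 and 0.469 CPM in Q20.

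Over the 26 group means, the genes most like the mean profile of the 10 were Greb1l (r = 0.965), Zfp7 (0.956), Caprin2 (0.954), Syp (0.952), the synaptic vesicle protein synaptophysin, and Fam196b (0.952), of 13313 genes averaging 1 CPM or more. Greb1l had 8.71 CPM in Q175 and 4.87 CPM in Q20 at 6 months. For single genes the nearest were Plpp2 for Acy3 (r = 0.965), Gabrq, a GABA receptor subunit, for Irs4 (0.867), Ngb, neuroglobin, for AW551984 (0.939) and Vav3 for Adamts19 (0.977). For Slitrk6 it was Rufy3 (0.964), for Kazald1 Fbxo44 (0.946), for Slc45a3 Cbx8 (0.930), for Rprm Olfm2 (0.922), for Tnnt2 Rgsl1 (0.954) and for Ccdc166 Zfp219 (0.953). Among the 10 themselves the closest profiles were Slitrk6 with Adamts19 (r = 0.96), Acy3 with Tnnt2 (0.892), Kazald1 with Tnnt2 (0.871) and Acy3 with Kazald1 (0.854). Ccdc166 reached at most 0.29 with any of them. These correlations are descriptions over 26 means that share age, line and sequencing.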

How the data were processed

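Striatal mRNA of 208 mice was read from 2 matrices of 39179 genes. The authors deposited expected counts per gene, which need not be whole (32.7% of those above 0 are not), and FPKM, a level per length and depth. CASAVA 1.8.2 is named in the submitters' processing notes, while for the aligner, the counter and the build nothing was given in the sources used here. Expected counts were rounded and tested with edgeR 4.0.16 (TMM, filterByExpr with a minimum count of 10, quasi-likelihood) at each age, with group and sex as terms, over all genes. A call is a Benjamini-Hochberg adjusted p under 0.05. CPM values use TMM factors over all libraries. Alternatives were DESeq2 1.42.0, limma 3.58.1 on log2(FPKM + 1) and log2(FPKM + 0.1), RLE factors, no filter, the L code of the library names, marker scores, only the groups compared, and leaving out libraries, of which 3 settings were chosen after seeing the data. The fits were tested on simulated data. R was 4.3.3 and Python 3.11.15.

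The genes and lists were chosen with earlier results of these data known. Genes named outside the 10 are those called in the lists, the nearest 2 neighbours on each side in GENCODE M21 order, and the genes of highest correlation over the 26 group means. The labels do not say whether mice were littermates, and the p-values of edgeR set a difference against the spread between these mice. Protein sequences were not used here.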

Additional observations from a re-analysis of the deposited data

Results flagged for a closer look

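A library was singled out where its gap to the nearest of the other 7 in its group, over the whole range of the group, was above Dixon's 95% critical value for 8 samples. This was so for 40 of 260 sets of 8 libraries (10 genes in 26 groups), and chance alone singles out about 1 set in 20. The 40 are spread unevenly over the genes, with 8 for Adamts19 and 7 for Slitrk6.

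Acy3 was highest in M5 of Q80 at 2 months, at 2.34 CPM, against 0.738 to 1.42 CPM in the other 7. At 0.617 CPM, M2 of the wild types housed with Q140 at 6 months was lowest, and the others had 1.10 to 1.49 CPM. Library F1 of the wild types housed with Q20 at 2 months was highest at 1.90 CPM, with the others at 0.790 to 1.29 CPM. Both Q80 M5 and this F1 are among the libraries of 2 months with the higher mitochondrial share.

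Irs4 was highest in M1 of Q140 at 2 months, at 9.83 CPM, against 0.999 to 2.79 CPM in the other 7. At 7.43 CPM, M1 of Q175 at 6 months was highest, and the others had 1.25 to 1.91 CPM. Library F2 of Q80 at 6 months was highest at 3.03 CPM, with the others at 0.588 to 1.08 CPM. At 1.88 CPM, F1 of Q92 at 2 months was highest, and the others had 0.323 to 1.06 CPM. Library M1 of the wild types housed with Q140 at 6 months was highest at 5.25 CPM, with the others at 0.573 to 2.46 CPM. At 3.15 CPM, M3 of the wild types housed with Q92 at 6 months was highest, and the others had 0.479 to 1.26 CPM.

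AW551984 was highest in M1 of Q140 at 2 months, at 28.0 CPM, against 4.23 to 14.4 CPM in the other 7. At 21.3 CPM, M1 of Q175 at 6 months was highest, and the others had 7.02 to 11.9 CPM. Library F1 of the wild types housed with Q80 at 6 months was highest at 7.60 CPM, with the others at 2.55 to 4.41 CPM. At 10.7 CPM, M3 of the wild types housed with Q92 at 6 months was highest, and the others had 2.49 to 5.28 CPM. The libraries Q140 M1, Q175 M1 and M3 of the wild types housed with Q92 are also the highest of their groups in Irs4.

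Slitrk6 was highest in M2 of Q140 at 6 months, at 11.5 CPM, against 3.85 to 6.80 CPM in the other 7. At 28.9 CPM, F2 of Q175 at 10 months was highest, and the others had 9.41 to 12.9 CPM. Library F4 of Q20 at 2 months was highest at 16.5 CPM, with the others at 2.66 to 4.86 CPM. At 28.8 CPM, F2 of Q80 at 10 months was highest, and the others had 5.31 to 8.87 CPM. Library F3 of Q80 at 6 months was highest at 12.5 CPM, with the others at 2.03 to 3.68 CPM. At 5.29 CPM, F1 of Q92 at 2 months was highest, and the others had 3.79 to 4.34 CPM. Library M1 of Q92 at 6 months was highest at 16.5 CPM, with the others at 3.06 to 4.27 CPM.

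Kazald1 was highest in F2 of Q111 at 10 months, at 3.64 CPM, against 2.54 to 2.99 CPM in the other 7. At 1.89 CPM, F4 of Q175 at 2 months was highest, and the others had 0.881 to 1.25 CPM. Library M5 of Q80 at 2 months, among those with the higher mitochondrial share, was highest at 3.72 CPM, with the others at 0.678 to 1.98 CPM. At 1.31 CPM, M2 of the wild types housed with Q20 at 6 months was lowest, and the others had 2.05 to 2.56 CPM.

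Slc45a3 was lowest in F1 of Q20 at 6 months, at 1.57 CPM, against 2.22 to 2.53 CPM in the other 7. At 3.03 CPM, M2 of the wild types housed with Q92 at 6 months was highest, and the others had 1.89 to 2.43 CPM.

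Adamts19 was highest in M2 of Q140 at 6 months, at 4.18 CPM, against 0.787 to 1.48 CPM in the other 7. At 3.83 CPM, M4 of Q175 at 6 months was highest, and the others had 0.887 to 2.19 CPM. Library F4 of Q20 at 2 months was highest at 4.52 CPM, with the others at 0.311 to 0.748 CPM. At 7.58 CPM, F2 of Q80 at 10 months was highest, and the others had 0.534 to 2.51 CPM. Library F3 of Q80 at 6 months was highest at 6.73 CPM, with the others at 0.428 to 0.704 CPM. At 7.35 CPM, M1 of Q92 at 6 months was highest, and the others had 0.509 to 0.746 CPM. Library M1 of the wild types housed with Q140 at 6 months was highest at 1.58 CPM, with the others at 0.347 to 0.797 CPM. At 2.44 CPM, F2 of the wild types housed with Q175 at 6 months was highest, and the others had 0.374 to 0.953 CPM. The libraries Q140 M2, Q20 F4, Q80 F2, Q80 F3 and Q92 M1 are high for Slitrk6 as well, and they also held 404, 456.4, 879, 540 and 650.998 CPM of the 7 thalamic markers. The part of thalamic RNA was not tested.

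Rprm was lowest in M1 of Q20 at 10 months, at 2.78 CPM, against 7.04 to 9.18 CPM in the other 7. At 13.9 CPM, M3 of Q20 at 6 months was highest, and the others had 3.91 to 6.29 CPM. Library F4 of Q92 at 2 months was highest at 18.4 CPM, with the others at 5.29 to 10.1 CPM. At 23.96 CPM, F2 of Q92 at 6 months was highest, and the others had 5.16 to 12.2 CPM. Cortical markers summed to 275 CPM in Q20 M3 and 681 CPM in Q92 F2, and the part of cortical RNA was not tested.

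Tnnt2 was lowest in F1 of Q92 at 10 months, at 1.72 CPM, against 3.13 to 4.24 CPM in the other 7.

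Ccdc166 was highest in M1 of Q92 at 10 months, at 3.08 CPM, against 0.528 to 1.30 CPM in the other 7.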

How the results depend on the processing

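Among the tests of the 10 genes, the count of 0 called in Q175 against Q20 at 2 months became 1 (Tnnt2) with DESeq2, on log2(FPKM + 1), on log2(FPKM + 0.1) and without the libraries that stood apart. The count of 0 in the trend at 2 months became 1 in the first 3 of these settings and 2 (Acy3 and Tnnt2) without those libraries. The 5 genes called between wild types of 10 and 2 months became 3 with the L code as a covariate, where Slc45a3 and Rprm lost the call. On either FPKM scale 3 were called of only 5 tested, and none of the tested genes lost its call. The 8 related genes higher at 6 months became 16 on either FPKM scale, and the 4 at 10 months became 12 and 11, and 2 with only the groups compared. The neighbours at 10 months became 12 higher on either FPKM scale, and 2 and 1 lower. Over all genes, 75.7% of calls at 6 months and 77.0% at 10 months were higher on log2(FPKM + 1), against 49.8% and 50.7% on counts, and the cause was not tested. Galnt13 was at 0.0073 and 0.0082 on the FPKM scales, against -0.15 on counts, and Irs4 at 10 months was at 0.30 against wild types, with -1.01 against Q20. Adamts19 at 10 months was at -0.15 against wild types and 0.31 against Q20, within the spread. Another 15 values for differences of the 10 genes at 6 or 10 months moved by over 1 SD, 9 of them smaller on log2(FPKM + 1), which understates low genes (Irs4 at 6 months 0.24, against 1.35 on counts). The other 128 summary values were counts equal or close to those of the main setting. For single genes, 56 values lost a call in some setting, most of them of related or neighbouring genes. Samples with the same replicate number came from different animals, and the labels do not say whether they share more than the number. The mean correlation of their deviations was -0.00119 at 2 months, 0.0561 at 6 months and 0.0178 at 10 months. Between samples of unlike number it was 0.00113, -0.0187 and -0.00562. With the replicate block, 0 of the 10 genes were called in each of the 5 tests where it was run. It was not run for wild types of 10 and 2 months, where 5 were called in the main setting, or for the sex tests. Of the related genes, 8 were higher and 16 lower with the block at 6 months and 3 and 13 at 10 months. Median counts per library of 52 for Acy3, 37.8 for Irs4 and 35 for Adamts19 limit their precision.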
